A study of Mus musculus with 13 samples.

Results

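The genes described here are *Runx1*, *Runx2*, *Runx3* and *Cbfb*, which encode the 3 Runx transcription factors of the mouse and their shared partner, Cbfβ. They were taken by name from the count tables, which makes 4 members of 24417 named genes. RNA was sequenced from Treg cells and Treg “wannabes”, cells that transcribe the *Foxp3* locus but make no Foxp3 protein, sorted from spleen and lymph nodes of C57BL/6 mice. The comparisons ask how Treg cells restored during disease differ from Treg cells of healthy mice and from “wannabes”, and how disease changes “wannabes”. Foxp3LSL is a *Foxp3* allele blocked by a removable cassette that carries the surface marker Thy1.1, and Cd4creERT2 is a Cre recombinase driven from the *Cd4* gene that 4-hydroxytamoxifen switches on. The first experiment used male mice, which received 4-hydroxytamoxifen on postnatal day 14 and were analysed 7 days later, at day 21, and the male genotypes all carry a modified *Foxp3*. Its groups are 3 control Treg libraries (Foxp3DTR-GFP/yCd4creERT2), 3 rescued Treg libraries (Foxp3LSL/yCd4creERT2) and 2 libraries of male “wannabes” (Foxp3LSL/yCd4wt), whose mice lack the recombinase. The second experiment used female mice aged 9 to 11 weeks that received diphtheria toxin 7, 5, 3 and 1 days before analysis. Its groups are 3 libraries of resting “wannabes” (Foxp3LSL/WTCd4wt), whose mice carry no toxin receptor, and 2 libraries of activated “wannabes” (Foxp3LSL/DTRCd4wt), in whose mice the toxin receptor marks the functional Treg cells for killing. These females are heterozygous for an X-linked gene, so the resting “wannabes” came from mice that keep functional Treg cells. The experiments differ in sex, age, treatment and genotype together.

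Each Runx factor binds DNA through its Runt domain at a short site, TGTGGT or less often TGCGGT. Cbfβ does not contact DNA itself but raises the affinity of the Runx factor it pairs with and protects it from degradation. In T cells *Runx1* is needed for thymic development and for keeping mature CD4 T cells quiescent, *Runx3* silences *Cd4* and sets the cytotoxic and type 1 programmes, and *Runx2* is best known as the master regulator of bone formation. In Treg cells Runx and Cbfβ complexes bind the *Foxp3* locus and the Foxp3 protein.

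The 3 Runx genes share a sequence that the choice of members did not use. It is shown because Runx sites at Runx promoters are the regulatory element common to the family. In the RefSeq promoter windows of GRCm38.p6, each 300 bases long, *Runx1*, *Runx2* and *Runx3* each hold a pair of TGTGGT sites read on the opposite strand and spaced in the same way. The stretches below are 30 bases long and run 5′ to 3′ on the strand of the gene, with every TGTGGT or TGCGGT site, in either orientation, in capitals.
Runx1, chr16:92826025-92826054, minus strand: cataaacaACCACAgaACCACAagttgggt
Runx2, chr17:44814583-44814612, minus strand: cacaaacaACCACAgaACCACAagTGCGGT
Runx3, chr4:135120503-135120532, plus strand: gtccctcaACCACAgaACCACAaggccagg
The stretches of *Runx1* and *Runx2* are identical at 27 of 30 bases, those of *Runx2* and *Runx3* at 21 and those of *Runx1* and *Runx3* at 19. The longest run common to the 3 genes, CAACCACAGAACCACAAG, has 18 bases and starts 26 bases downstream of the RefSeq start in *Runx1*, 21 bases downstream in *Runx2* and 136 bases upstream in *Runx3*. For *Runx1* and *Runx3* these are the windows of the start sites farthest upstream. The run was found in these windows first and then counted on both strands. It is in 4 of 32851 promoter windows (0.0122%), and the fourth belongs to Gm16225, whose window overlaps that of *Runx3* on the other strand. A single TGTGGT, counted on both strands and also inside this run, is in 16.8% of windows, 2 or more copies are in 1.81%, and TGCGGT is in 6.45%. The second *Runx1* window (chr16:92697280-92697579), the second *Runx3* window (chr4:135152295-135152594) and the *Cbfb* window (chr8:105170424-105170723) hold neither site, which says only that these letters are not in those windows.

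The libraries held between 25556783 and 36659638 counted reads. *Foxp3*, the gene that the cassette blocks, was higher in each Treg group than in male “wannabes”. Its normalized count was 28381 to 36405 in rescued Treg cells, 5479 to 8264 in control Treg cells and 2762 to 3273 in male “wannabes”. In the female experiment it was 1999 to 2229.7 in resting and 1568 to 1728 in activated “wannabes”. Rescued and control Treg cells carry different modified *Foxp3* alleles, so the parts of allele and disease in their *Foxp3* levels cannot be told apart. The summed level of 4 T cell markers was between 3224 and 5312 CPM (counts scaled to the library total) in every library. Of the CD8 T cell markers, *Cd8a* lay between 1.82 and 16.1 normalized counts and *Cd8b1* between 281 and 910.2, and their sum was 9.72 to 27.8 CPM. The sums over 5 B cell markers were 31.95 to 39.7 CPM in control Treg cells, 38.1 to 42.3 in rescued Treg cells, 34.6 to 44.1 in male “wannabes”, 9.80 to 12.1 in resting and 22.5 to 24.7 in activated “wannabes”. Sums over 6 myeloid markers did not exceed 10.9 CPM and sums over 4 natural killer cell markers did not exceed 6.83 CPM. A normalized count is a count scaled to the mean effective library size of its experiment, so levels are compared within an experiment only. By the methods, the female groups came from as many mice as there are libraries, and the male libraries are biological replicates whose number of animals is not given, so p-values measure the spread between these libraries.

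*Runx1* lies on chromosome 16 of GRCm38 from 92601466 to 92826149 on the minus strand, and its merged exons in GENCODE M21 cover 12025 bases. In control Treg cells its normalized count was 7274, 7323 and 8324, and in rescued Treg cells 6289.8, 7066 and 9908. The male “wannabes” had 3690.3 and 3576. Control and rescued Treg cells overlapped, and all 6 Treg libraries lay above both “wannabe” libraries. In these bulk samples, fewer cells that carry a transcript and less of it per cell cannot be told apart. The mean was 7640.4 ± 593 (SD, n = 3) in control Treg cells, 7755 ± 1905 (SD, n = 3) in rescued cells and 3633 ± 80.8 (SD, n = 2) in male “wannabes”. *Runx1* was therefore 2.10-fold higher in control Treg cells than in male “wannabes” (log2 fold change 1.07 ± 0.21 SE, adjusted p = 0.00572, edgeR) and 2.13-fold higher in rescued Treg cells (1.09 ± 0.21 SE, adjusted p = 0.00492). Between rescued and control Treg cells the log2 fold change was 0.02 ± 0.18 SE (adjusted p = 0.977), which is within the spread of the libraries.

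In the female experiment *Runx1* read 4695, 4503 and 4195 in resting “wannabes” and 3086 and 3346 in activated “wannabes”. The groups did not overlap. The mean was 4465 ± 252 (SD, n = 3) in resting and 3216 ± 184 (SD, n = 2) in activated cells, a log2 fold change of −0.47 ± 0.09 SE (adjusted p = 0.0126, edgeR). *Runx1* thus fell in activated “wannabes”, but the call was lost without activated replicate 1 (−0.42, adjusted p = 0.121) or activated replicate 2 (−0.54, adjusted p = 0.0739), and when all 13 libraries were fitted together (−0.48, adjusted p = 0.159).

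*Runx2*, on chromosome 17 from 44495987 to 44814797 on the minus strand, was the member with the largest fold change between rescued and control Treg cells. Its normalized count was 662, 711 and 1064 in control Treg cells and 2856, 1713 and 3329 in rescued Treg cells. Male “wannabes” held 1535.5 and 1956. Every rescued Treg library and both “wannabe” libraries stood above all control Treg libraries, and the “wannabes” lay within the range of the rescued cells or below it. The mean rose from 813 ± 219 (SD, n = 3) in control to 2633 ± 830.4 (SD, n = 3) in rescued Treg cells, a 3.24-fold difference (log2 fold change 1.70 ± 0.28 SE, adjusted p = 0.0119, edgeR). Without control replicate 1 or control replicate 2 the log2 fold change was 1.57 (adjusted p = 0.0713) and 1.61 (adjusted p = 0.0643). Male “wannabes” averaged 1746 ± 297 (SD, n = 2), 2.15-fold above control Treg cells (control minus “wannabe” −1.10 ± 0.30 SE, adjusted p = 0.0301). That call was lost without control replicate 1 (−0.97, adjusted p = 0.104), control replicate 2 (−1.01, adjusted p = 0.0943) or “wannabe” replicate 2 (−0.97, adjusted p = 0.108). Rescued Treg cells and male “wannabes” differed by 0.59 ± 0.31 SE on the log2 scale, which did not pass the test (adjusted p = 0.243).

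*Runx2* also rose in the female experiment. Resting “wannabes” had 582, 861 and 408 normalized counts and activated “wannabes” 2166 and 2367, so that each activated library was well above each resting library. The means were 617 ± 229 (SD, n = 3) and 2266 ± 142 (SD, n = 2), a 3.67-fold difference (log2 fold change 1.88 ± 0.28 SE, adjusted p = 0.00605, edgeR). Without activated replicate 2 the log2 fold change was 1.80 with an adjusted p of 0.0535. The *Runx2* exons share 519 bases with the antisense gene *Runx2os1*, and the strand setting of the counting is not given in the sources used here, so reads from this stretch cannot be assigned to either gene. The same holds for 106 exonic bases that *Runx1* shares with the antisense gene Gm26626.

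**Figure D1:**
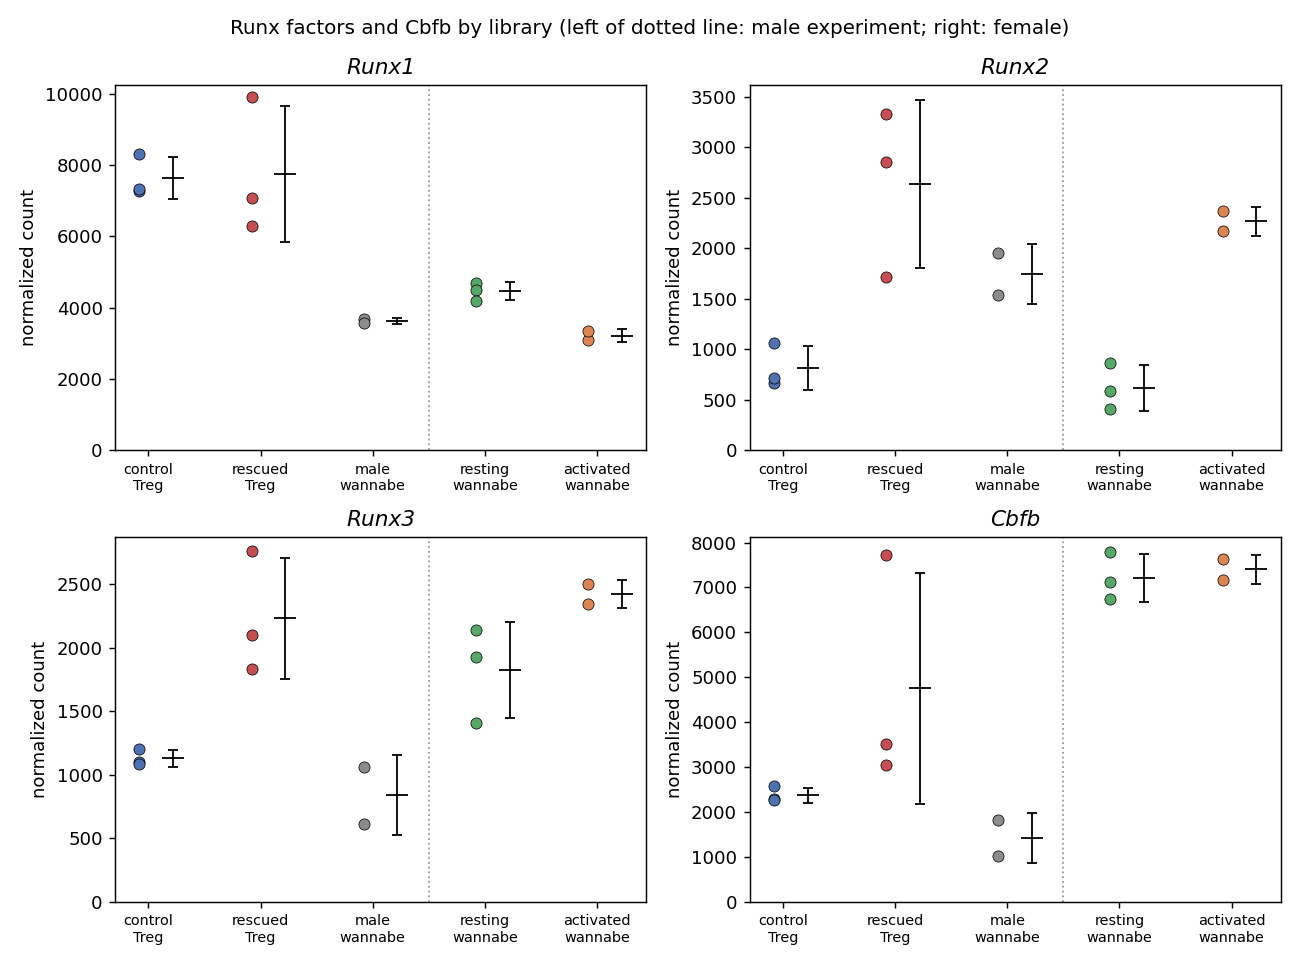
Normalized count (vertical axes, linear and starting at 0) of *Runx1*, *Runx2*, *Runx3* and *Cbfb* in each library, one point per library in 5 groups, with black bars for the mean ± SD. The male experiment is left of the dotted line and the female experiment right of it; *Runx1* is lowest in male “wannabes” among the male groups, *Runx2* is lowest in control Treg and resting “wannabe” cells, and rescued replicate 1 stands apart for *Cbfb* at 7718.

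*Runx3*, on chromosome 4 from 135120652 to 135177990 on the plus strand, read 1099.6, 1084 and 1206 in control Treg cells and 2764, 1835 and 2101 in rescued Treg cells. The male “wannabes” had 616 and 1062. All rescued Treg libraries were above all control libraries, and these above both “wannabe” libraries, the nearest pair being 1084 and 1062. The means were 1129.96 ± 66.2 (SD, n = 3), 2233 ± 478 (SD, n = 3) and 839 ± 316 (SD, n = 2). *Runx3* was 2.66-fold higher in rescued Treg cells than in male “wannabes” (log2 fold change 1.41 ± 0.29 SE, adjusted p = 0.00722, edgeR), a call kept when any single library was left out. Between rescued and control Treg cells the log2 fold change of 0.98 ± 0.25 SE did not pass the test in edgeR (adjusted p = 0.0678) and passed it in DESeq2 (adjusted p = 0.00359). Control Treg cells and male “wannabes” differed by 0.43 ± 0.28 SE (adjusted p = 0.319).

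In the female experiment *Runx3* read 1930.1, 2139 and 1405 in resting and 2503 and 2349 in activated “wannabes”. The groups did not overlap, with means of 1825 ± 378 (SD, n = 3) and 2426 ± 108 (SD, n = 2), but the log2 fold change of 0.41 ± 0.17 SE did not pass the test (adjusted p = 0.137, edgeR).

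*Cbfb* lies on chromosome 8 from 105170674 to 105217989 on the plus strand. It read 2568, 2278 and 2263 in control Treg cells and 7718, 3503 and 3038 in rescued Treg cells. Male “wannabes” had 1816 and 1022. The 3 male groups did not overlap, but rescued replicate 1 held more than 2 times as much *Cbfb* as the other rescued libraries. The means were 2369.7 ± 172 (SD, n = 3), 4753 ± 2578 (SD, n = 3) and 1419 ± 561 (SD, n = 2). *Cbfb* was 3.35-fold higher in rescued Treg cells than in male “wannabes” (log2 fold change 1.74 ± 0.39 SE, adjusted p = 0.0128, edgeR), and without “wannabe” replicate 2 the log2 fold change was 1.35 (adjusted p = 0.0897). Against control Treg cells the log2 fold change of 1.00 ± 0.33 SE did not pass the test (adjusted p = 0.155), and it was 0.46 without rescued replicate 1. DESeq2 gave an adjusted p of 0.0391 for the same comparison. The log2 fold change between control Treg cells and male “wannabes” was 0.74 ± 0.38 SE (adjusted p = 0.208).

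Resting “wannabes” had 7784, 6744 and 7112 normalized counts of *Cbfb* and activated “wannabes” 7168 and 7633, so the groups overlapped. With means of 7213 ± 527 (SD, n = 3) and 7401 ± 329 (SD, n = 2), the log2 fold change was 0.04 ± 0.09 SE (adjusted p = 0.788, edgeR).

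**Figure D2:**
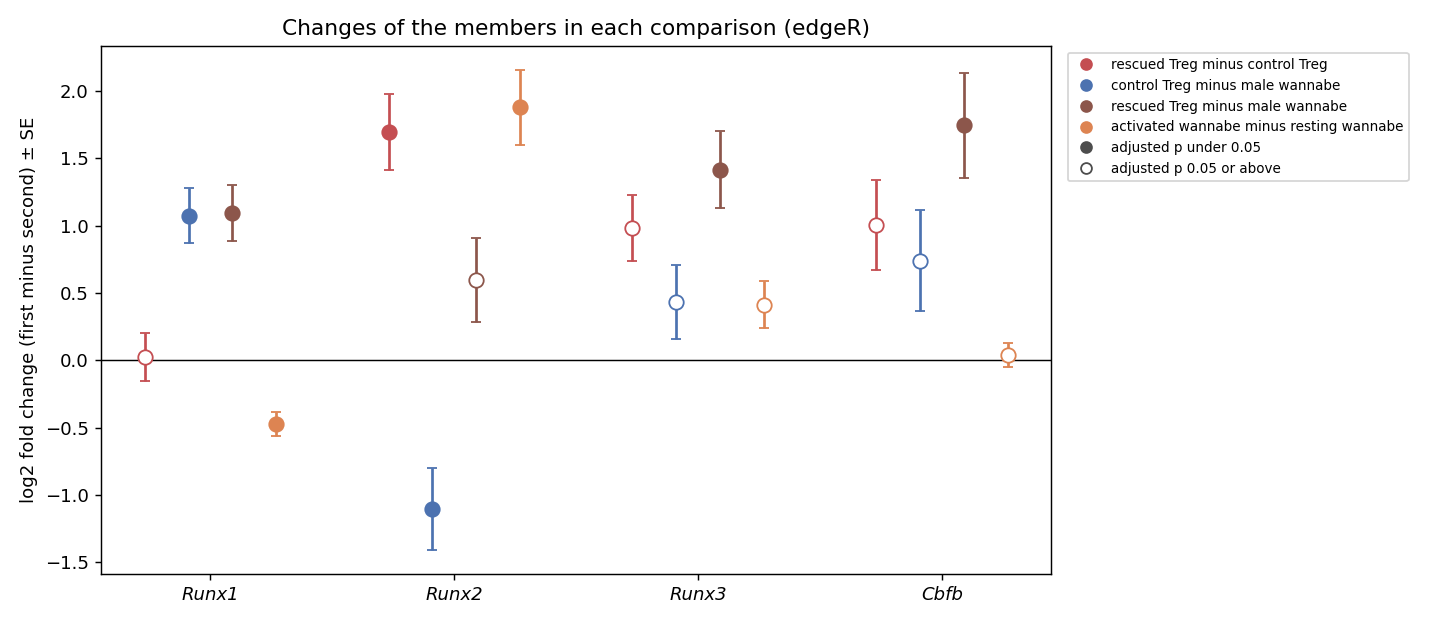
Log2 fold change ± SE (vertical axis, edgeR) of the 4 members (horizontal axis) in the 4 comparisons, which are told apart by color. Filled points passed an adjusted p of 0.05: *Runx2* at 1.70 and 1.88 in the disease comparisons, *Runx1* at 1.07 and 1.09 against male “wannabes” and at −0.47 in activated “wannabes”, *Runx2* at −1.10 in control Treg cells against male “wannabes”, and *Runx3* and *Cbfb* at 1.41 and 1.74 in rescued Treg cells against male “wannabes”.

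Read against all genes tested, 1 of the 4 members was called between rescued and control Treg cells, where 2.30% of 14925 genes were called (1.43% higher and 0.864% lower). For 3 of the 4 the libraries of these groups did not overlap, as for 24.2% of all genes. Between control Treg cells and male “wannabes” 2 of 4 were called, 1 in each direction, with 16.2% of all genes called (9.92% higher and 6.27% lower), and all 4 members had groups that did not overlap, as did 46.1% of genes. Between rescued Treg cells and male “wannabes” 3 of 4 were called higher, beside 14.1% of genes called (10.0% higher and 4.06% lower), and 3 of 4 did not overlap, beside 42.7% of genes. Between activated and resting “wannabes” 2 of 4 were called, 1 in each direction, with 22.5% of 13166 genes called (11.3% higher and 11.2% lower), and 3 of 4 did not overlap, as for 56.5% of genes. The male comparisons share libraries, so their counts are not independent of each other.

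The step from control to rescued Treg cells was also set against the step from resting to activated “wannabes” in a contrast over all 13 libraries. None of the 4 members was called in this difference of changes, where 1.53% of 15201 genes were called by edgeR. In edgeR 2 members had an unadjusted p under 0.05. The change of *Runx1* was 0.51 ± 0.23 SE higher in Treg cells on the log2 scale (adjusted p = 0.356, edgeR), and that of *Cbfb* 0.98 ± 0.43 SE higher (adjusted p = 0.336, edgeR). DESeq2 called none of them either, with adjusted p between 0.234 and 0.927. For *Runx2*, which rose in both experiments, the difference was −0.16 ± 0.44 SE (adjusted p = 0.941), an interval wide enough to hold differences in either direction.

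To compare levels between genes, CPM were divided by the kilobases of merged exons. On this scale the order in control Treg cells was *Cbfb* at 20.8 ± 1.51 and *Runx1* at 19.4 ± 1.502 CPM per kilobase, whose libraries overlapped, then *Runx3* at 6.88 ± 0.403 and *Runx2* at 2.80 ± 0.757 (SD, n = 3). In rescued Treg cells *Cbfb* was at 41.6 ± 22.6, *Runx1* at 19.7 ± 4.83, *Runx3* at 13.6 ± 2.91 and *Runx2* at 9.08 ± 2.86 (SD, n = 3), and the libraries of *Runx1* and *Runx3* overlapped, as did those of *Runx3* and *Runx2*. In male “wannabes” *Cbfb* at 12.4 ± 4.91 overlapped *Runx1* at 9.21 ± 0.205, and *Runx2* at 6.02 ± 1.03 overlapped *Runx3* at 5.11 ± 1.92 (SD, n = 2). By its mean, *Runx2* was the lowest Runx transcript per length in both Treg groups, without overlap in control Treg cells only. The order depends on the length used. Per kilobase of coding sequence, an alternative chosen after seeing the data, *Runx1* stood above *Cbfb* in control Treg cells, at 159 to 182 against 123 to 139.6 CPM without overlap (n = 3), and in male “wannabes” at 79.4 ± 1.76 against 77.1 ± 30.5 with overlap (SD, n = 2).

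In resting “wannabes” *Cbfb* was at 69.8 ± 5.10 CPM per kilobase, *Runx1* at 12.5 ± 0.707, *Runx3* at 12.3 ± 2.55 and *Runx2* at 2.35 ± 0.871 (SD, n = 3), with *Runx1* and *Runx3* overlapping. In activated “wannabes” the order was *Cbfb* at 71.65 ± 3.18, *Runx3* at 16.3 ± 0.730, *Runx1* at 9.01 ± 0.516 and *Runx2* at 8.64 ± 0.540 (SD, n = 2), with *Runx1* and *Runx2* overlapping. Per kilobase of coding sequence the order of *Runx1* and *Runx3* in activated “wannabes” turned, to 77.7 ± 4.44 and 64.4 ± 2.88 CPM without overlap (SD, n = 2), and in resting “wannabes” they no longer overlapped, at 108 ± 6.09 and 48.4 ± 10.0 (SD, n = 3). Among the genes tested in an experiment that have a length, *Cbfb* stood above 94.9% of genes in resting and 94.7% in activated “wannabes”, and above 80.3% in control Treg cells. *Runx2* stood above 41.3% in control and 62.4% in rescued Treg cells, and above 31.4% in resting and 55.5% in activated “wannabes”.

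The make-up of the Runx transcripts was described as shares of the reads per kilobase of merged exons of the 3 Runx genes. None of the differences tested passed an exact permutation test, and all adjusted p were 0.6 or above. In control Treg cells *Runx1* took 67.2, 67.2 and 65.7%, against 37.4, 51.2 and 50.8% in rescued Treg cells and 50.8 and 40.7% in male “wannabes”. The control libraries lay above all others of the male experiment. The mean *Runx1* share was 66.7 ± 0.881% in control, 46.5 ± 7.86% in rescued (SD, n = 3 each) and 45.8 ± 7.18% in male “wannabes” (SD, n = 2). The difference of −20.2 percentage points between rescued and control Treg cells had p = 0.1 in a two-sided exact permutation test (adjusted p = 0.6 over 12 tests), and 0.1 is the smallest p that 3 against 3 libraries allow. For the 21.0 points between control Treg cells and male “wannabes” the exact permutation p was 0.2. The two-sided test doubles the one-sided p, so 0.2 is the smallest p that 3 against 2 libraries allow.

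In resting “wannabes” *Runx1* took 46.4, 41.6 and 51.6% and in activated “wannabes” 25.6 and 27.4%, without overlap. The means were 46.5 ± 5.00% (SD, n = 3) and 26.5 ± 1.26% (SD, n = 2), a difference of −20.0 points. The exact permutation p was 0.2, the smallest that 3 against 2 libraries allow. The *Runx2* share was 9.55 ± 1.65% in control Treg cells, 21.1 ± 3.63% in rescued Treg cells, 29.5 ± 1.06% in male “wannabes”, 8.50 ± 2.08% in resting and 25.4 ± 1.35% in activated “wannabes” (SD). *Runx3* made up 23.7 ± 0.794% in control Treg cells, 32.45 ± 6.81% in rescued Treg cells and 24.7 ± 6.12% in male “wannabes”. In the female experiment its share was 45.0 ± 3.09% in resting and 48.1 ± 2.61% in activated “wannabes”, whose ranges overlapped (exact permutation p = 0.4). Per kilobase of coding sequence these ranges did not overlap, at 25.5 to 31.2% in resting and 33.2 to 36.6% in activated “wannabes”. Nor did they in raw reads, at 23.4 to 28.5% and 29.1 to 32.3%. The size of a share depends on the length used. Per kilobase of coding sequence *Runx1* took 42.0 ± 1.44% and *Runx3* 34.9 ± 2.36% in activated “wannabes” (SD, n = 2), so that *Runx1* led there, and *Runx3* took 13.1 ± 0.396% in control Treg cells (SD, n = 3).

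The ratio of *Cbfb* to the 3 Runx genes together, in reads per kilobase, was 0.820, 0.722 and 0.617 in control Treg cells and 1.59, 0.877 and 0.539 in rescued Treg cells. Male “wannabes” had 0.864 and 0.402. The rescued libraries lay on both sides of the controls, and the male groups all overlapped. In the female experiment the ratio was 2.66, 2.15 and 3.02 in resting and 2.06 and 2.16 in activated “wannabes”, which overlapped as well. None of the 4 comparisons of this ratio had an exact permutation p below 0.4.

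**Figure D3:**
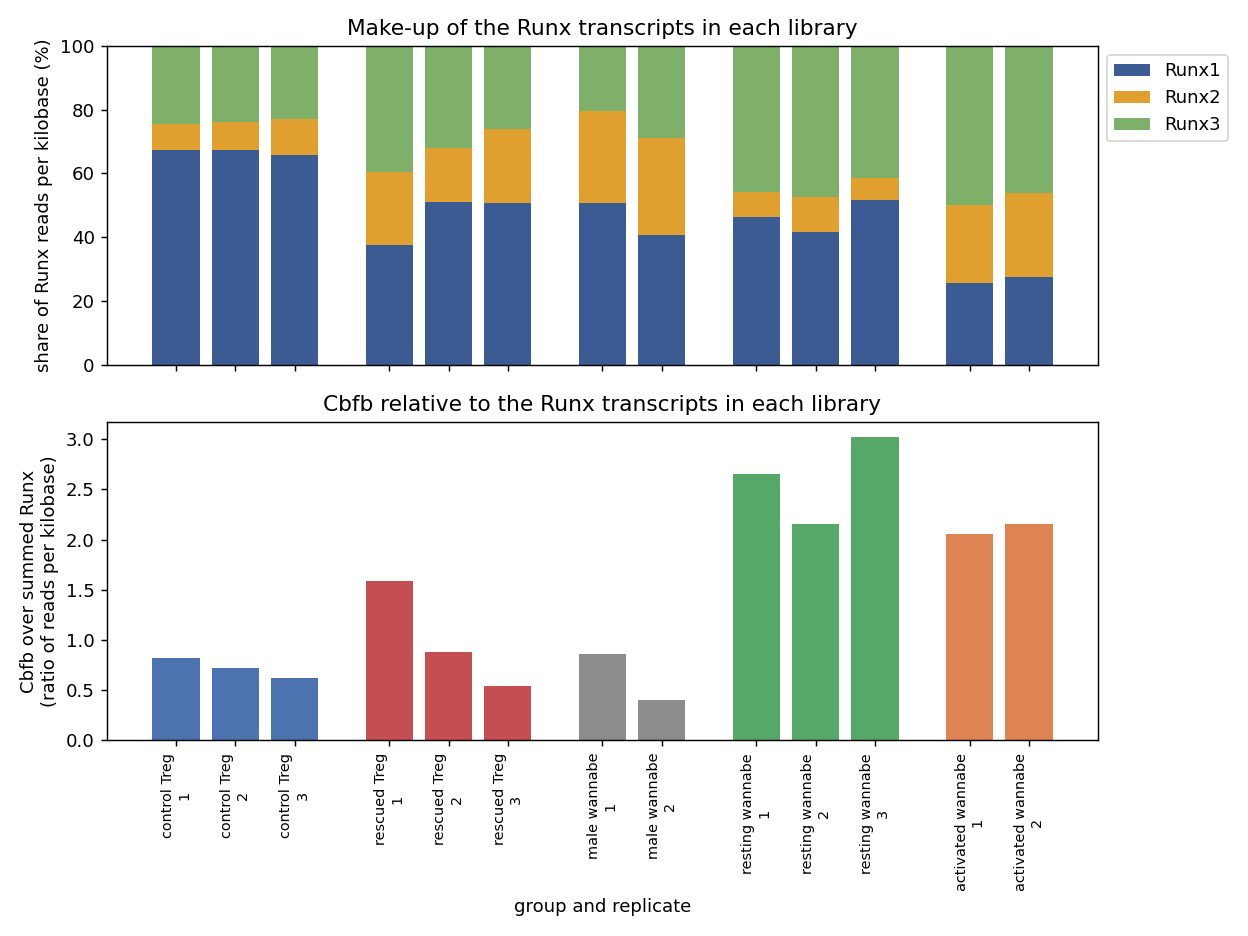
Top, share of the reads per kilobase of the 3 Runx genes (vertical axis, percent) taken by each gene in every library; bottom, ratio of *Cbfb* to the summed Runx genes in reads per kilobase, one bar per library colored by group. *Runx1* takes 65.7% to 67.2% in control Treg cells and 25.6% to 27.4% in activated “wannabes”, and the ratio in rescued Treg cells spreads from 0.539 to 1.59.

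Runx factors work with corepressors such as the Groucho proteins, with acetyl- and methyltransferases and with partner transcription factors. Of 28 such cofactors and partners, 26 were tested in each comparison. Between rescued and control Treg cells 2 were called higher and 2 lower, where 1.43% of all genes were called higher and 0.864% lower, with a median log2 fold change of −0.08 beside −0.03 over all genes. *Gata3*, the type 2 regulator, rose from 7675 to 15717.5 mean normalized counts (log2 fold change 1.03, adjusted p = 0.00938), and *Satb1*, a chromatin organizer, from 8768 to 19052 (1.12, adjusted p = 0.0163). The TCF/LEF factors fell, *Tcf7* from 9768 to 4959.7 (−0.98, adjusted p = 0.00938) and *Lef1* from 19585 to 12600.5 (−0.64, adjusted p = 0.0264). The 4 calls became 2 without any one of the 3 control libraries or without rescued replicate 1.

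In activated against resting “wannabes” 4 of the 26 cofactors were called higher and 4 lower, where 11.3% of all genes were called higher and 11.2% lower (median −0.03, beside −0.01 over all genes). *Gata3* rose by 1.16 (adjusted p = 0.000334) and *Satb1* by 1.44 (adjusted p = 0.0127) on the log2 scale, as did the kinase gene *Hipk2* (0.54, adjusted p = 0.0181) and the deacetylase gene *Hdac3* (0.26, adjusted p = 0.0414). The acetyltransferase genes *Kat6b* (−0.64, adjusted p = 0.0253) and *Crebbp* (−0.42, adjusted p = 0.0288) fell, and so did the Groucho gene *Tle2* (177 to 30.9 mean normalized counts, adjusted p = 0.00634). *Wwtr1*, which encodes a coactivator of the Hippo pathway, averaged 71.0 normalized counts in resting and 1.90 in activated “wannabes”. It reached the filter on low counts through the resting libraries only, so its test is not given, and without it 3 cofactors were lower. The 8 calls became 1 without activated replicate 1, 2 without activated replicate 2 and 5 without resting replicate 3.

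Between control Treg cells and male “wannabes” 3 of the 26 cofactors were higher and 5 lower in control Treg cells, where 9.92% of all genes were called higher and 6.27% lower (median 0.16, beside 0.09 over all genes). The partners *Ets1* (0.86, adjusted p = 0.00385) and *Bcl11b* (0.90, adjusted p = 0.0103) and the Groucho gene *Tle4* (1.12, adjusted p = 0.0180) were higher. *Prmt1*, an arginine methyltransferase gene, was lower by 1.18 (log2 fold change −1.18, adjusted p = 0.00183), as were *Tcf7* (−1.07, adjusted p = 0.00187), *Gata3* (−0.67, adjusted p = 0.0239) and *Hdac3* (−0.61, adjusted p = 0.0340). The number called went from 8 to 4 without control replicate 1 and to 5 without control replicate 2 or rescued replicate 2. Between rescued Treg cells and male “wannabes” 4 were higher and 3 lower, where 10.0% of all genes were called higher and 4.06% lower (median 0.19, beside 0.00 over all genes). *Ets1* (1.39), *Bcl11b* (1.27), *Satb1* (1.09) and *Aes* (1.09) were higher and *Tcf7* (−2.05), *Prmt1* (−1.25) and *Hdac3* (−0.68) lower, with adjusted p between 0.000202 and 0.0270.

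Runx proteins are removed by ubiquitin ligases, of which 9 were listed and tested. *Fzr1*, an activator of the anaphase-promoting complex, was the 1 gene called between rescued and control Treg cells (1949 to 4097 mean normalized counts, log2 fold change 1.07, adjusted p = 0.0248), and none was called without any one of the control libraries, rescued replicate 1 or rescued replicate 3. In activated “wannabes” 3 were higher, *Cdc20* (2.57, adjusted p = 0.00076), *Fzr1* (0.61, adjusted p = 0.00763) and the F-box gene *Skp2* (0.91, adjusted p = 0.0244), and *Stub1*, which encodes a chaperone-linked ligase, was lower (−0.31, adjusted p = 0.0347), with 1 call in place of 4 without activated replicate 1 and 2 without activated replicate 2. Control Treg cells had more *Stub1* (1.27), *Nedd4l* (1.73) and *Fzr1* (1.05) than male “wannabes”, with adjusted p between 0.00479 and 0.0141, and rescued Treg cells more *Fzr1* (2.12) and *Stub1* (1.36), with adjusted p of 0.000415 and 0.00321. The median log2 fold change of the 9 genes was −0.18 between rescued and control Treg cells, 0.27 between control Treg cells and “wannabes”, 0.20 between rescued Treg cells and “wannabes” and 0.20 between activated and resting “wannabes”, beside −0.03, 0.09, 0.00 and −0.01 over all genes. The shares of all genes called in these comparisons were 2.30%, 16.2%, 14.1% and 22.5%.

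Of 25 genes reported to be bound or regulated by Runx in T cells, 24 were tested in the male experiment. Between rescued and control Treg cells 6 were higher and 1 lower, where 1.43% of all genes were called higher and 0.864% lower, with a median log2 fold change of 0.88 beside −0.03 over all genes. *Foxp3* (2.18, adjusted p = 0.000393), the granzyme gene *Gzmb* (2.48, adjusted p = 0.000612) and the integrin gene *Itgae* (1.96, adjusted p = 0.00199) were among those that rose. Rescued and control Treg cells carry different modified *Foxp3* alleles, so for *Foxp3* the parts of allele and disease cannot be told apart. *Il4*, the type 2 cytokine gene, averaged 4.53 normalized counts in controls and 422 in rescued cells. It did not reach the filter on low counts in the controls, so its test is not given, and without it 5 genes were higher. The chemokine receptor gene *Ccr7*, which guides T cells into lymph nodes, fell (−0.96, adjusted p = 0.0122). Without control replicate 1 the 7 calls became 4. *Cd4*, a silencing target of Runx3, averaged 15898 in rescued and 13496 in control Treg cells and was not called. The summed level of 4 natural killer cell markers was 0.417 to 1.32 CPM in control and 2.88 to 6.80 CPM in rescued Treg cells, with *Klra4* and *Klra8* at 0 in both groups, and its part in these changes was not tested.

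In activated against resting “wannabes” 8 of 23 such genes were higher and 3 lower, where 11.3% of all genes were called higher and 11.2% lower (median 0.38, beside −0.01 over all genes). *Tbx21*, the type 1 regulator (3.10, adjusted p = 0.000465), *Tnfrsf18*, which encodes GITR (1.07, adjusted p = 0.000624), and *Itgae* (2.42, adjusted p = 0.00181) rose. The chemokine gene *Ccl5* averaged 5.84 normalized counts in resting and 111 in activated “wannabes”. *Ccl5* and *Il3*, the latter at 0 in every resting library, reached the filter through the activated libraries only, so their tests are not given, and without them 6 genes were higher. The type 17 cytokine gene *Il17a* fell (−5.96, adjusted p = 0.00113), and *Foxp3* fell by 0.35 (log2 fold change −0.35, adjusted p = 0.0448). Without activated replicate 1 or activated replicate 2 the 11 calls became 6. The B cell marker sums given above were also higher in the activated libraries, and the sums of group 2 innate lymphoid and mast cell markers were lower, at 19.7 to 25.0 CPM against 27.5 to 57.4 CPM in resting “wannabes”. The sum of the 2 CD8 T cell markers was 14.2 to 15.9 CPM in activated and 9.72 to 13.9 CPM in resting “wannabes”, without overlap. *Cd79b* made up most of the B cell sums, *Kit* most of the innate lymphoid and mast cell sums and *Cd8b1* most of the CD8 sums. Whether such cells were present, and their part in these changes, was not tested.

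**Figure D4:**
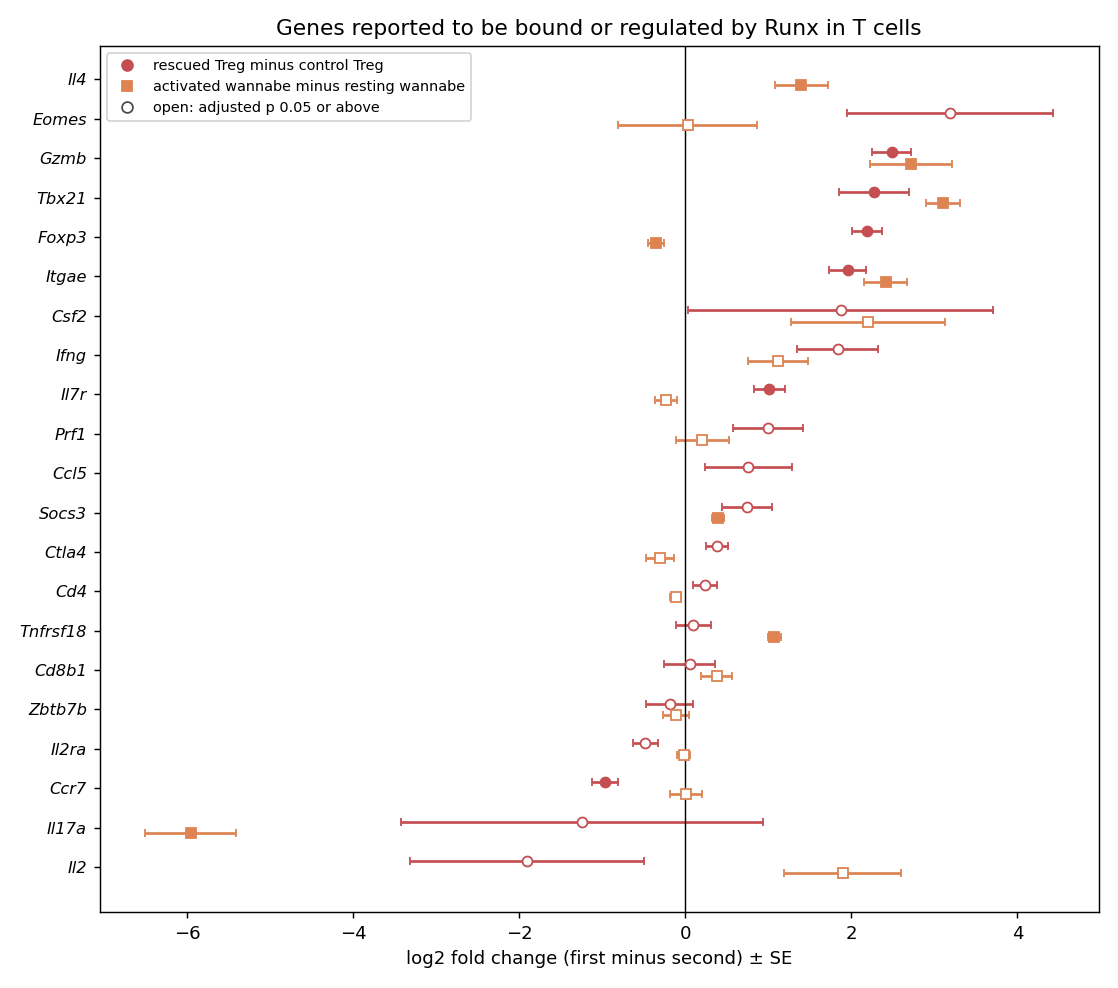
Log2 fold change ± SE (horizontal axis, edgeR) of 21 genes reported to be bound or regulated by Runx in T cells and tested in both experiments, with rescued minus control Treg as circles and activated minus resting “wannabe” as squares. Filled symbols passed an adjusted p of 0.05. Among them are *Gzmb*, *Tbx21* and *Itgae* in both comparisons, *Foxp3* at 2.18 and −0.35, and *Il17a* in the female comparison at −5.96. *Il3*, listed at 0 in every resting library, is not drawn. Nor are the circle of *Il4* and the square of *Ccl5*, which reached the filter on low counts through 1 group only.

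Against male “wannabes”, control Treg cells had 3 of the 24 genes higher and 6 lower, beside 9.92% and 6.27% of all genes (median −0.70, beside 0.09 over all genes). *Foxp3* (1.20), *Il2ra* (0.78) and *Ctla4* (0.55) were higher, with adjusted p between 0.00313 and 0.0326. *Cd4* (−1.51), *Gzmb* (−1.36) and *Itgae* (−0.95) were lower, with adjusted p between 0.000456 and 0.0187, and *Il4* averaged 4.53 beside 2843 normalized counts in “wannabes”, with no test given for the same reason, which leaves 5 lower. Rescued Treg cells had 6 of the 24 higher and 3 lower than male “wannabes”, beside 10.0% and 4.06% of all genes (median 0.33, beside 0.00), among them *Foxp3* (3.39), *Ctla4* (0.92), *Tbx21* (2.88) and *Gzmb* (1.13) higher and *Ccr7* (−1.61), *Cd4* (−1.27) and *Il4* (−2.75) lower, with adjusted p between 6.25e-05 and 0.0124. *Foxp3*, *Il2ra*, *Ctla4* and *Tnfrsf18* of this list are also Treg cell markers, so the sort that defines the groups bears on them. The *Foxp3* alleles of both Treg groups also differ from the blocked allele of the male “wannabes”. Both Treg groups came from mice with Cd4creERT2, driven from the *Cd4* gene, and the male “wannabes” from Cd4wt mice. For *Cd4* the parts of this genotype and of cell type cannot be told apart. Sums over markers of other cells differed between control Treg cells and male “wannabes” without overlap. Natural killer cell sums were 0.417 to 1.32 against 4.61 to 6.83 CPM, from *Klrb1c* alone, with *Ncr1*, *Klra4* and *Klra8* at 0. Sums over 4 markers of group 2 innate lymphoid and mast cells were 6.87 to 16.2 against 20.3 to 26.99 CPM. Most of these was *Kit*, at 6.44 to 12.7 against 19.2 to 26.3 CPM. Myeloid sums were 4.00 to 10.9 against 0.985 to 1.66 CPM. In control Treg cells most of this was *Itgam*, at 3.28 to 10.4 CPM. Rescued Treg cells had 6.33 to 9.36 CPM of the innate lymphoid and mast cell markers and 3.20 to 8.78 CPM of the myeloid markers. Whether such cells were present, and their part in the changes, was not tested.

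The Runx genes sit in related neighbourhoods beside members of the *Clic* and *Rcan* families, and *Supt3* overlaps *Runx2* over 37646 bases without sharing exon sequence. Of 6 such neighbours tested, none was called between rescued and control Treg cells by edgeR or DESeq2, and 0 had an unadjusted p under 0.05, where edgeR called 2.30% of all genes. Between control Treg cells and male “wannabes” 4 were higher and 1 lower, where 9.92% of all genes were called higher and 6.27% lower (median 1.32, beside 0.09 over all genes). *Rcan3* (1.35, adjusted p = 0.00389), *Clic4* (1.29, adjusted p = 0.00877), *Rcan1*, which encodes an inhibitor of calcineurin (2.08, adjusted p = 0.0315), and *Supt3* (0.94, adjusted p = 0.0449) were higher. The 1 lower call was *Rcan2*, at a mean of 1.54 normalized counts beside 22.6 and 128 in the “wannabe” libraries. It reached the filter on low counts in the “wannabe” libraries and not in control Treg cells, so its test is not given. The 5 calls became 2 without control replicate 1, control replicate 2 or rescued replicate 2, and 3 without control replicate 3 or “wannabe” replicate 1. Rescued Treg cells also had more *Clic4* (1.51), *Rcan1* (2.93) and *Rcan3* (1.14) than male “wannabes”, with adjusted p between 0.00400 and 0.00784. None of 4 neighbours tested was called in the female experiment by edgeR or DESeq2, and 1 had an unadjusted p under 0.05, where edgeR called 22.5% of all genes.

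The genes whose pattern over the 13 libraries was most like that of a member were ranked by Pearson's r of log2 CPM, centred within each experiment, among 10239 genes. For *Runx1* they were *Col4a3bp* (r = 0.97), *Rasgrp1* (0.96) and *Map2k4* (0.96), for *Runx2* *Paqr4* (0.98), *Il18rap* (0.97) and *Plekhg3* (0.96), for *Runx3* *Hnrnpl* (0.95), *E2f4* (0.95) and *Crlf2* (0.94), and for *Cbfb* *Hccs* (0.99), *Tmed2* (0.98) and *Ptges2* (0.98). *Rasgrp1* averaged 13300.3 ± 254 normalized counts in controls, 13428 ± 1797 in rescued cells (SD, n = 3 each) and 5154 ± 206 in male “wannabes” (SD, n = 2). *Plekhg3* averaged 126 ± 30.7 in control and 588 ± 294 in rescued Treg cells (SD, n = 3 each) and 425 ± 162 in male “wannabes” (SD, n = 2). The genes named for *Cbfb* spread widely among rescued Treg libraries, as *Cbfb* did. *Hccs* averaged 1331 ± 770, *Tmed2* 4817 ± 3501 and *Ptges2* 512 ± 450 there (SD, n = 3). How far their r rests on a single library was not tested. These correlations describe libraries that share group, depth and handling and carry no test.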

How the data were processed

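Bulk RNA-seq counts of 13 libraries were used, 8 from the male and 5 from the female experiment. The authors made libraries with the SMART-Seq v4 kit, aligned reads to GRCm38 with STAR 2.7.3a and summed them by gene in R; the submitters' processing notes also name DESeq2 1.28.1. The deposited values are raw counts, and annotation and strand setting are not given in the sources used here. Of the rows, 4 name no gene (0.00353 to 0.00841% of counts) and were left out. Replicates had Pearson correlations of log2 CPM from 0.934 to 0.987 and differed by more than the sampling noise. A floor of 3 counts is 8.18e-06 to 1.17e-05% of a library and covers counting error only, since reads carry no molecular identifiers.

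Tests used edgeR 4.0.16 in R 4.3.3 (TMM, filterByExpr, quasi-likelihood F test, Benjamini-Hochberg over all genes tested, adjusted p under 0.05), with male and female libraries fitted separately. A group by itself reached this filter on low counts where, scaled to the median library, at least 2 of its libraries held 10 counts or more. Log2 CPM used a prior count of 2. Lengths came from GENCODE M21, which matched 23651 of 24417 genes (96.9%). Shares were compared by exact permutation tests. Likeness was ranked among genes tested in both experiments with a mean normalized count over 100 in each. The text names the 4 members, up to 4 called genes per direction of each list with the smallest p, and the 3 genes most like each member. Members and lists were chosen with earlier results of these data known. Alternatives were DESeq2 1.42.0, its size factors in edgeR, no filter, the replicate number as a block, other sets of libraries in the fit, other lengths, Spearman's rho, and leaving out each library. Each test was first tried on simulated data. Promoter sequences came from RefSeq. Results for 1 listed gene that this rule covers are not reported here.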

Additional observations from a re-analysis of the deposited data

Results flagged for a closer look

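None of the 4 members was among the results that differed between the experiments in a test of the difference itself, and groups of 2 or 3 libraries are too small for a test of single outlying libraries. Among the listed partners and reported targets, 3 genes changed differently from control to rescued Treg cells than from resting to activated “wannabes” (contrast over all 13 libraries, edgeR). Over all 15201 genes tested in this contrast, 1.53% were called. The log2 difference of changes was 2.55 ± 0.24 SE for *Foxp3* (adjusted p = 0.000638), −1.01 ± 0.18 SE for *Tcf7* (adjusted p = 0.0145) and 1.26 ± 0.26 SE for *Il7r*, the IL-7 receptor gene (adjusted p = 0.0330). For *Il4* it was 5.12 ± 0.83 SE, with no test given and not counted among the 3, since its control Treg libraries held 0 to 10.4 normalized counts and did not reach the filter on low counts. Sex, age, treatment, genotype and cell type differ between the experiments together, so their parts cannot be told apart. For *Foxp3*, control and rescued Treg cells carry different modified alleles, while both groups of female “wannabes” transcribe the blocked Foxp3LSL allele.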

How the results depend on the processing

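Results that missed the test but passed it under another setting were *Runx3* between rescued and control Treg cells with DESeq2 (1.00), no filter (0.98) and a fit of only the 2 groups (0.99), *Cbfb* in that comparison with DESeq2 (1.03), and *Cbfb* between control Treg cells and male “wannabes” with the replicate block (0.97, adjusted p = 0.0360). The call of *Runx1* in activated “wannabes” was lost with all 13 libraries in 1 fit (−0.48). Replicate numbers did not pair the libraries (correlations of same-numbered deviations from −0.03 to 0.08), and under the replicate block *Runx1* between rescued and control Treg cells turned to −0.00249 and the difference of changes of *Runx2* to 0.0322, neither called in any fit. DESeq2 called 1195 genes in place of 343 between rescued and control Treg cells, 3717 in place of 2416 and 3266 in place of 2105 against male “wannabes”, and 792 in place of 233 in the difference of changes. The number between rescued and control Treg cells was 612 without a filter and 580 with only the 2 groups, and that between activated and resting “wannabes” was 869 in place of 2958 with all 13 libraries. The causes were not tested.

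Leaving out each library in turn, log2 fold changes between rescued and control Treg cells ranged from −0.20 to 0.15 for *Runx1* (turned without control replicate 1 or 2 or rescued replicate 3), 1.49 to 1.94 for *Runx2*, 0.80 to 1.12 for *Runx3* (called without either male “wannabe” library) and 0.46 to 1.24 for *Cbfb*. For control Treg cells against male “wannabes” they ranged from 1.00 to 1.11, −1.34 to −0.97, 0.08 to 0.83 and 0.34 to 1.21, and for rescued Treg cells against male “wannabes” from 0.88 to 1.22, 0.39 to 0.87, 1.07 to 1.82 and 1.20 to 2.21, in the same order. For activated against resting “wannabes” they ranged from −0.54 to −0.42, 1.65 to 2.19, 0.25 to 0.54 and −0.0201 to 0.104, and for the difference of changes from 0.31 to 0.63, −0.48 to 0.0900, 0.40 to 0.74 and 0.44 to 1.24. Genes called numbered 114 (without control replicate 1) to 598 (without “wannabe” replicate 1) between rescued and control Treg cells, 1549 (without control replicate 2) to 2423 and 1570 to 1959 against male “wannabes”, 751 (without activated replicate 1) to 3215 (without resting replicate 2) between “wannabes”, and 44 (without activated replicate 2) to 430 (without male “wannabe” replicate 2) for the difference of changes. Where a group was left with 1 library, that library was assumed to vary like the others. The *Runx1* share between rescued Treg cells and male “wannabes” ranged from −4.36 to 5.79 points, the *Runx3* share between control Treg cells and male “wannabes” from −5.30 to 3.36, and log2 *Cbfb* over Runx from −0.0573 to 0.72 between rescued and control Treg cells and −0.27 to 0.83 between control Treg cells and male “wannabes”. No difference between groups in a share or ratio turned with coding length, chosen after seeing the data, or with raw reads. The shares themselves moved by over 1.5 times in places. With coding length, *Runx1* in activated “wannabes” went from 26.5 to 42.0%. *Runx3* went from 23.7 to 13.1% in control and from 32.45 to 20.4% in rescued Treg cells. In male and resting “wannabes” it went from 24.7 to 15.4% and from 45.0 to 28.6%. The lengths of RefSeq proteins were not run, since that table was not used here. By Spearman's rho, 0 of the 3 named genes stayed among the first 3 for each Runx gene and 1 for *Cbfb*. Of 80 counts of listed genes under other settings, 15 moved by over 1.5 times.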
